A study of Mus musculus with 10 samples.

Results

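The 10 genes described here encode the core of the transforming growth factor beta (TGF-β) pathway and a ligand of its sister branch: the ligand gene *Tgfb1*, the receptor genes *Tgfbr1* and *Tgfbr2*, the signal transducer genes *Smad2*, *Smad3* and *Smad4*, the inhibitor genes *Smad7*, *Ski* and *Skil*, and the bone morphogenetic protein gene *Bmp2*. Accessible regions were assigned to a gene when the region's centre lay inside it or when the nearest annotated transcription start site (TSS) was at it. By this rule 108 of the 50039 regions of the chromatin accessibility table (mouse build mm10) belonged to the 10 genes, with 2 at *Tgfb1*, 11 at *Tgfbr1*, 19 at *Tgfbr2*, 7 at *Smad2*, 30 at *Smad3*, 4 at *Smad4*, 10 at *Smad7*, 10 at *Ski*, 8 at *Skil* and 7 at *Bmp2*. Of the 108 regions, 8 were promoter regions, 67 lay inside genes and 33 between genes. Of the 108, 5 lay over 100 kb from the TSS and outside the gene, and all passed the filter of at least 1 count. The list of genes was given by name, and it was chosen with earlier results of these data known.

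The regions were measured by ATAC-seq, in which a transposase cuts open chromatin, in group 2 innate lymphoid cells (ILC2s) of male wild-type C57BL/6 mice aged 6 weeks. The cells came from lung, pancreas, small intestine (SI), large intestine (LI) and bone marrow (BM). Each tissue gave 2 libraries of 50000 sorted cells, from pools of 16 mice for BM, pancreas and lung and of 10 for SI and LI. BM cells were sorted as lineage-negative ST2+CD25+, and LI, lung and pancreas cells as lineage-negative CD45+CD127+ST2+CD25+. SI cells were sorted by KLRG1 together with CD45, CD127 and a reduced Thy1 level. The BM cells also went through a different sorting instrument from the rest. The SI gate, the BM gate and instrument, and the pool size thus cannot be told apart from the tissue. The labels name no transgene and no treatment. Library totals ran from 10282987 counts in pancreas replicate 2 to 32797872 in lung replicate 2, so the pancreas values carry more counting error than the lung values. Of the 8 ILC2 marker genes, 7 had a promoter region in the table (*Thy1* had none), whereas no promoter region was present for the B cell, myeloid, mast cell and basophil, NK cell and ILC1, ILC3, acinar or endothelial markers. Of the others, 2 of 5 T cell markers (*Cd3e* and *Cd3g*, 4.71 to 10.0 CPM summed), 1 of 4 epithelial (*Cdh1*, 2.89 to 9.49) and 1 of 3 stromal markers (*Pdgfra*, 11.3 to 17.9) had such a region. The 7 ILC2 markers had 179 to 293 CPM summed. These sums run over unlike numbers of markers, so they do not compare single promoter regions. The promoter region of the erythroid marker *Hbb-bs* had 7.64 to 11.2 CPM in BM and 0.193 to 1.83 in the other tissues (*Klf1* had no such region), and the part of such cells in the BM values below was not tested. In these bulk samples, fewer cells with an open region and less opening per cell cannot be told apart.

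TGF-β binds the type II receptor TGFBR2, which recruits and activates the type I receptor TGFBR1. TGFBR1 phosphorylates SMAD2 and SMAD3, which enter the nucleus with the shared partner SMAD4 and bind short DNA elements, and SMAD7, SKI and SKIL hold the signal back at the receptor or on chromatin. In lung and gut the pathway is known for its part in lymphocyte residency and in ILC2 development, and BMP2 signals through a separate set of receptors and SMADs that also uses SMAD4.

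By mean summed level 7 of the 10 genes were most open in lung ILC2s, beside 15.6% of all 17484 genes tested. Only *Tgfb1*, *Smad4* and *Smad7* of the 7 passed the main test of a difference between tissues, which does not test the lead of lung. Only *Smad4* exceeded each of the 4 other tissues at an unadjusted p under 0.05 in edgeR. The log2 lead of lung over the next tissue was 0.564 there and ran from 0.036 (*Smad3*) to 0.293 (*Ski*) at the rest. The regions specific to lung lay in introns or upstream, none of them at a promoter. Sequences of 3 regions are shown first, as the plus strand of mm10 over the middle 300 bases of each. The 3 genes were picked by name. Each region is its gene's only region within 100 kb of the TSS that was called above all 4 other tissues in a single tissue. *Skil* also had a single such region, 19.1 kb upstream. Region starts were read as counted from 1, which the table does not state, so a window may be off by 1 base. Capitals mark matches on either strand to CAGAC (the element bound by SMAD3 and SMAD4), AGATAA (bound by GATA factors) and TGTGGT (bound by RUNX factors), which may overlap each other.

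*Smad3* intron 1, chr9:63703461-63703760: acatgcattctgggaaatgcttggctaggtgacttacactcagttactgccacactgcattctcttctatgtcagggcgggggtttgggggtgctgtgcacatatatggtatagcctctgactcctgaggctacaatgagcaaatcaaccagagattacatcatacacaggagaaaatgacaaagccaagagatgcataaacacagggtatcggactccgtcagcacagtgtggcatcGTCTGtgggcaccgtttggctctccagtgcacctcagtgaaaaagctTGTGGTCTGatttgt
*Tgfbr2* intron 4, chr9:116123028-116123327: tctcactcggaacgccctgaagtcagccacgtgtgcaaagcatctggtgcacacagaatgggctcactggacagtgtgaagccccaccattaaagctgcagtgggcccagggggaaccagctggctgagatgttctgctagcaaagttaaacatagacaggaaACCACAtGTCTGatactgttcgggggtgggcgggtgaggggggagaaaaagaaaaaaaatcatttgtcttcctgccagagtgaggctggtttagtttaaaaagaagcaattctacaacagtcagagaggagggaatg
*Bmp2* upstream, chr2:133505807-133506106: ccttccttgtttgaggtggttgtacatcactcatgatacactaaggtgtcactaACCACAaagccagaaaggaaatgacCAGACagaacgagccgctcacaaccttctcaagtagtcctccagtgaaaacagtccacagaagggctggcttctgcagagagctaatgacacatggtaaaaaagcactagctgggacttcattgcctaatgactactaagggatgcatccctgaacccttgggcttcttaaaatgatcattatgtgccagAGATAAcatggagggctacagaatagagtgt

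The *Smad3* sequence held 2 matches to CAGAC and the *Tgfbr2* and *Bmp2* sequences 1 each, and a GATA match was found only in the *Bmp2* sequence among these 3. The *Smad3* and *Tgfbr2* regions were highest in lung and the *Bmp2* region was highest in LI, as the values below show.

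Levels are given as CPM, the counts of a region relative to its library's total, scaled by the trimmed mean of M values (TMM). Across the 5 tissues, 52 of the 108 regions (48.1%) differed at an adjusted p under 0.05 in edgeR's quasi-likelihood F test, beside 44.2% of all 49981 regions tested, so the genes' regions varied about as often as the rest. The same test called 3 of the 8 promoter regions, beside 30.9% of all promoters, and 49 of the 100 regions outside promoters, beside 47.3% of all such regions. Without lung replicate 2 the number fell to 33 regions, beside 34.4% of all regions. The median log2 difference between the highest and the lowest tissue was 0.90 over the 108 regions and 0.93 over all regions.

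The direction leaned to lung. Lung had the highest mean in 40 of the 108 regions (37.0%) and in 14.3% of all regions. BM was highest in 21.3% of the genes' regions and in 28.9% of all, and SI in 16.7% and 24.0%. The median log2 difference of lung from BM was 0.23 over the 108 regions and -0.05 over all regions, and that of lung from SI was 0.23 and -0.04. Against LI the medians were 0.20 and -0.01, and against pancreas 0.13 and -0.01. These contrasts share the lung libraries. Scaling by library size alone raised lung over BM, LI and pancreas at the median region of the table by 0.21 to 0.25, so the lung values below are relative to TMM scaling. Removing trends in GC content and width moved lung the other way, by -0.232 against BM, -0.115 against pancreas and -0.074 against LI. Against SI the shift was 0.018. The share of regions highest in lung was not recomputed in these fits.

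**Figure D1:**
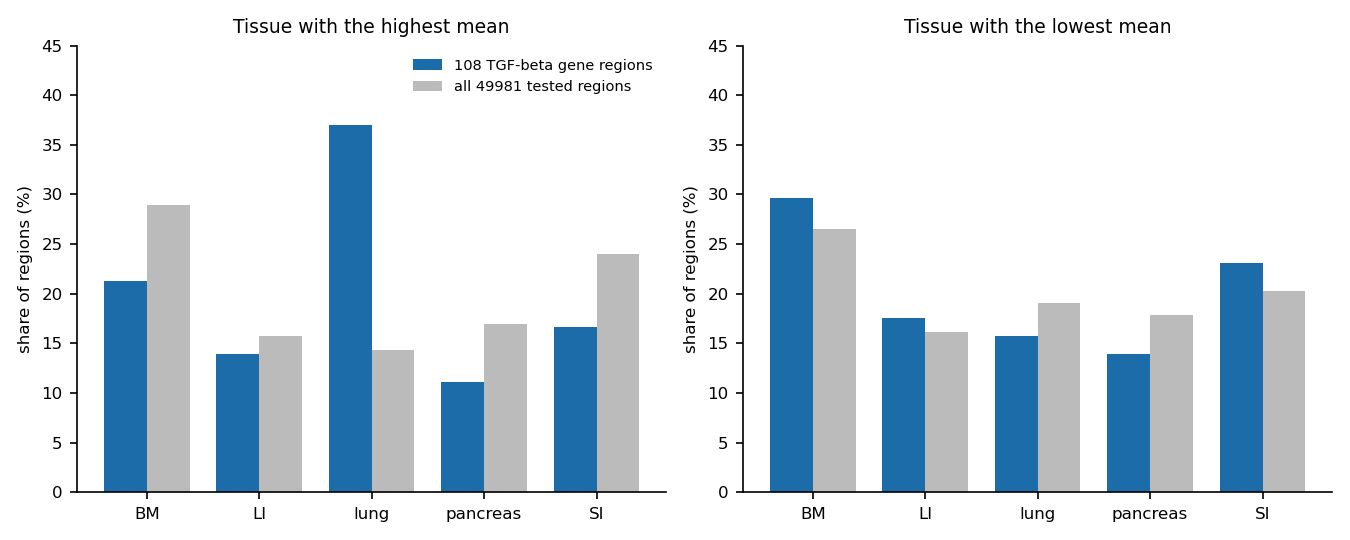
Bars give the share of regions (%) whose mean CPM was highest (left) or lowest (right) in each tissue, for the 108 regions of the 10 genes in blue and all 49981 tested regions in grey. Lung was highest in 37.0% of the genes' regions against 14.3% of all, while the tissue with the lowest mean was spread more like the rest of the table.

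Tissue-specific open chromatin regions (TS OCRs) exceeded all 4 other tissues, each contrast reaching an unadjusted p under 0.05 in edgeR. Of the 108 regions, 11 were lung TS OCRs (10.2%), beside 1.3% of all regions, and they lay at 6 of the 10 genes. The other tissues held fewer: 2 in BM beside 4.5% of all regions, 3 in LI beside 1.3%, 0 in pancreas (also 0 with DESeq2) beside 1.43%, and 1 in SI beside 2.8%. In each of the 11 lung regions both lung libraries lay above all 8 other libraries, and all 11 also passed the F test. The regions were picked by these same values, so neither property is separate support for the calls. At an adjusted p under 0.05 in each contrast, 3 of the 11 remained in the count, beside 0.394% of all regions. The count was 6 after trends in GC content and width were removed (1.02% of all regions), 5 without lung replicate 2 (0.498%), 7 without LI replicate 2 (1.22%) and 7 without SI replicate 2 (1.53%). The 3 regions that stayed lung TS OCRs in all 17 alternative fits were the *Tgfbr2* intron 4 region and the *Ski* regions 5.0 kb and 44.0 kb into the gene.

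**Figure D2:**
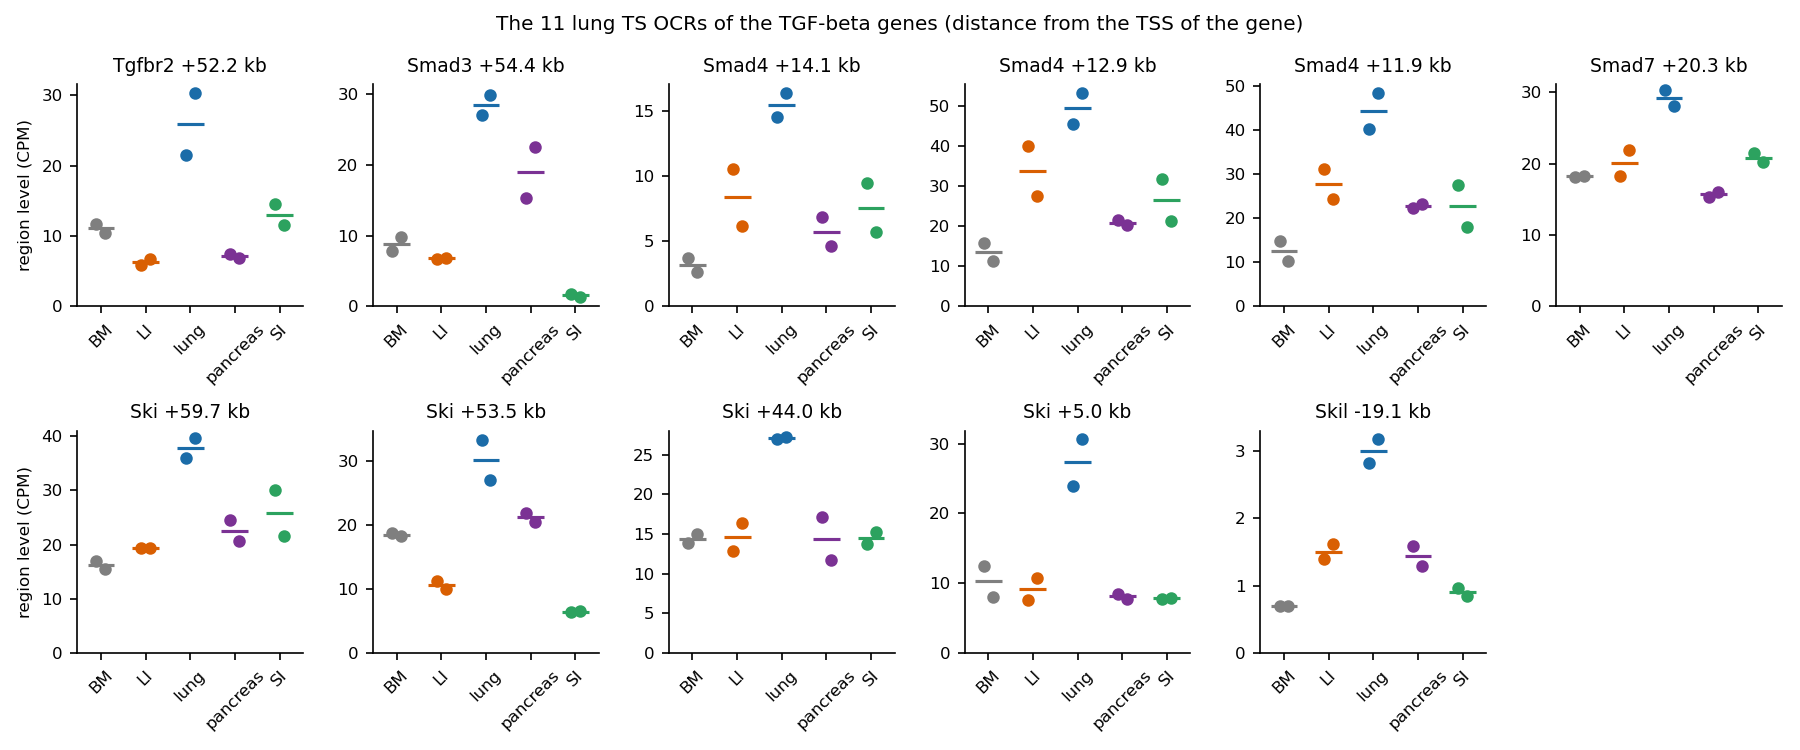
Each panel gives the level (CPM, linear axis from 0) of a lung TS OCR in the 10 libraries, with points for libraries and lines for the mean of 2. Panel titles give the signed distance from the gene's TSS. In all 11 panels the 2 lung points lie above every other point, which the choice of these regions favours.

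Regions below all 4 other tissues were counted in the same way. BM had 10 such regions at the genes, beside 6.63% of all regions, SI had 3 beside 3.59%, lung 4 beside 1.72%, pancreas 3 beside 0.572% and LI 1 beside 0.132%. The BM count was 5 after GC and width trends were removed (3.91% of all regions), 3 without BM replicate 2 (5.36%) and 6 without pancreas replicate 1 (6.07%). Regions higher in both LI and SI than in BM, lung and pancreas numbered 2, beside 2.18% of all regions, and those lower in both numbered 2, beside 0.874%. Both kinds together numbered 4 (3.06% of all regions), and 7 without LI replicate 2 (2.42%), 2 without LI replicate 1 (2.4%) and 1 without pancreas replicate 1 (1.78%).

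Counts summed over the regions of each gene gave 1 value per gene, scaled anew over 17484 genes tested. Of the 10 genes, 5 differed between tissues (*Tgfb1*, *Tgfbr1*, *Smad4*, *Smad7* and *Bmp2*), beside 34.9% of all genes. DESeq2's likelihood ratio test, which called 43.1% of all genes, also called *Tgfbr2* (adjusted p = 0.00976), *Smad3* (0.015), *Ski* (0.00619) and *Skil* (0.0381). The count of genes that differed moved together with the share of all genes. It was 8 with library size alone (55.0% of all genes), 8 without SI replicate 2 (44.7%), 9 with DESeq2 (43.1%), 3 without lung replicate 2 (24.6%) and 3 without pancreas replicate 2 (26.8%).

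**Figure D3:**
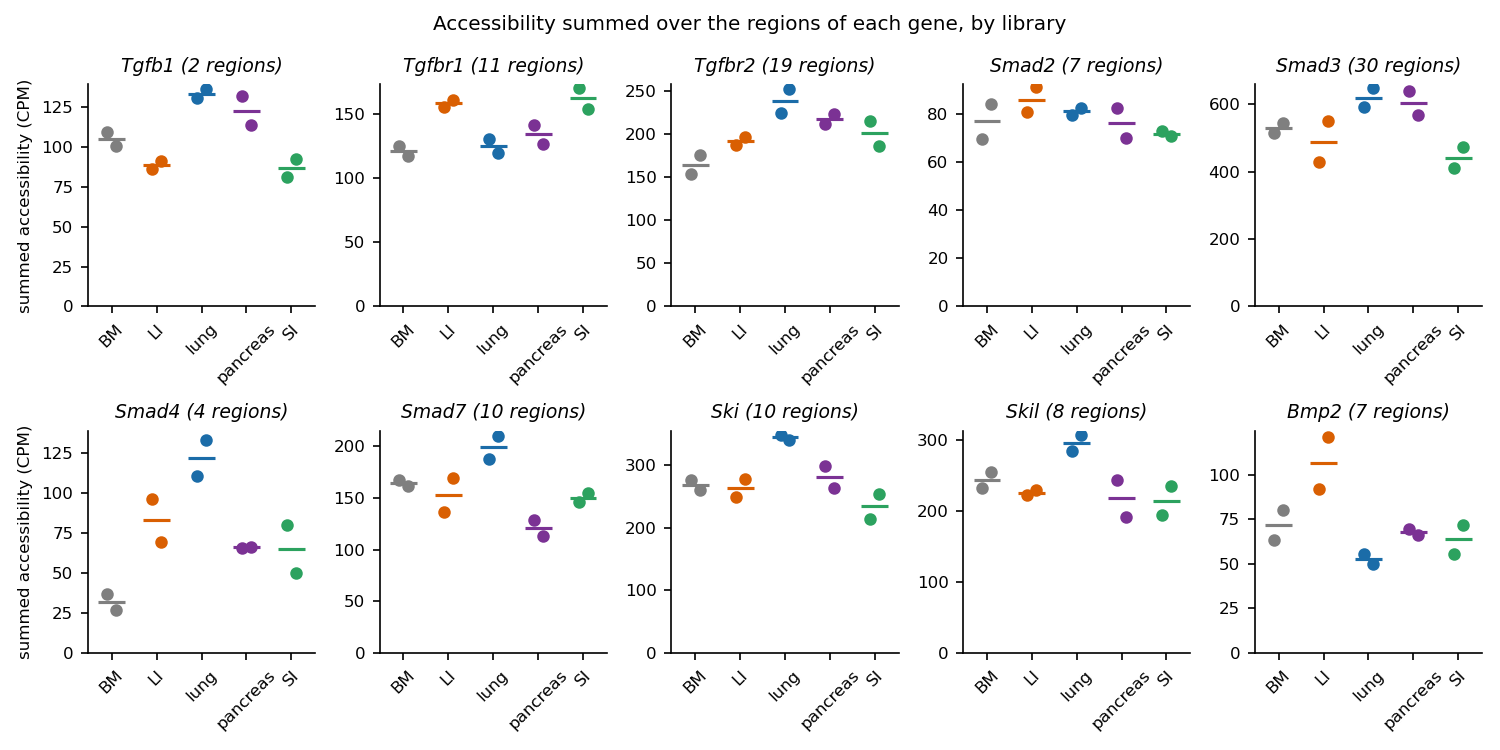
Accessibility summed over all regions of each gene (CPM, linear axes from 0) in the 10 libraries, with points for libraries and lines for the mean of 2. *Smad4* was lowest in BM (31.6) and highest in lung (122.0), *Bmp2* was highest in LI, and *Smad2* was nearly level.

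*Tgfb1* encodes the TGF-β1 ligand. Its summed level was 130.1 and 136.1 CPM in lung, 131.7 and 113.3 in pancreas, 109.0 and 100.5 in BM, 86.1 and 91.25 in LI, and 81.03 and 92.09 in SI. The lung and pancreas libraries thus lay above those of the other 3 tissues, and the difference of lung from SI was 0.62 ± 0.14 (log2, SE; edgeR adjusted p = 0.0054). Neighbours in the order lung, pancreas, BM, LI, SI did not pass an unadjusted p of 0.05. Its promoter region (chr7:25686785-25687407, over the first exon's 5′ UTR) had 60.61 and 65.22 CPM in lung, 67.63 and 55.59 in BM, and 37.4 and 41.14 in LI, and differed between tissues (adjusted p = 0.0108). The intron 1 region 2.5 kb downstream (chr7:25689193-25689751) was highest in pancreas, with 97.64 and 82.18 CPM, and overlapped lung at 81.58 and 82.64. It had 55.09 and 54.57 CPM in LI and 56.86 and 56.85 in SI (adjusted p = 0.0066). Lung was thus high at both regions, and neither was a TS OCR.

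*Tgfbr1*, the type I receptor gene, ran the other way and was most open in the gut by summed level, though not at its promoter region. The regions summed include those 50.4, 49.6 and 42.3 kb upstream, which lie inside the neighbouring collagen gene *Col15a1*. The *Tgfbr1* sum was 170.4 and 153.9 CPM in SI and 155.7 and 161.3 in LI, and 125.2 and 117.3 in BM, 130.2 and 119.8 in lung and 141.4 and 127.0 in pancreas. All 4 gut libraries lay above the other 6. SI exceeded BM by 0.42 ± 0.13 (log2, SE), with an adjusted p of 0.046 in the F test over all tissues. This call was lost on leaving out any library but SI replicate 2, with adjusted p from 0.0636 to 0.133 and a difference from 0.34 to 0.47.

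The promoter region of *Tgfbr1* (chr4:47352898-47353491) did not follow the gut level, with 65.67 and 63.12 CPM in SI, 56.05 and 56.0 in LI and 81.13 and 66.77 in BM (adjusted p = 0.213). Distal regions differed more. A region 42.3 kb upstream, inside the neighbouring collagen gene *Col15a1* (chr4:47310615-47311280), had 38.62 and 32.54 CPM in LI, 20.73 and 26.32 in pancreas, 18.05 and 21.95 in SI, 13.75 and 14.31 in BM, and 9.33 and 10.76 in lung. It was a TS OCR of LI, by at least 0.60 ± 0.22 (log2, SE; largest adjusted p = 0.167), and was also called lowest in lung. The difference of LI from lung was 1.82 ± 0.22 (adjusted p = 1.4e-04). The LI call was lost without LI replicate 1 (0.47) and without pancreas replicate 1 (0.43). The lung call was lost without either library of BM (-0.51 and -0.45), LI (-0.48 and -0.47) or lung (-0.37 and -0.57), with library size alone (-0.27) and with thinned counts (-0.37).

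A region 6.2 kb upstream of *Tgfbr1* (chr4:47346803-47347303) was called a TS OCR of SI on a single library. It had 18.58 CPM in SI replicate 1 and 3.0 in SI replicate 2, beside 5.14 and 2.78 in LI and 0.22 to 1.51 in the other tissues. Without SI replicate 1 the smallest difference of SI from another tissue turned from 1.46 to -0.42. The call was also lost without either BM library (1.46 in both) or LI replicate 2 (1.05), with DESeq2 (1.47) and with the replicate block (1.27). Both gut tissues lay above the other 3 in that region (LI libraries at 2.78 and above, the others at 1.51 and below). In lung, the 3′ UTR region in exon 9 (chr4:47412141-47412735) was lowest, with 2.47 and 2.54 CPM against 8.33 and 9.02 in SI. That lung call was lost without LI replicate 2 (-0.32), without either lung library (-0.87 and -0.91), without pancreas replicate 1 (-0.75), with library size alone (-0.64) and with thinned counts (-0.71). The regions 49.6 kb and 39.0 kb upstream were lowest in BM, with 6.61 and 5.29 CPM and 6.85 and 8.79 CPM, both called lowest in BM. The first call was lost without BM replicate 2 (-0.49) or lung replicate 2 (-0.50), and the second without BM replicate 1 (-0.37), either lung library (-0.47 and -0.63) or pancreas replicate 1 (-0.54). With GC and width trends removed the differences shrank from -0.64 to -0.22 and from -0.54 to -0.16, and both calls were lost, as they were with thinned counts (-0.42 and -0.35).

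*Tgfbr2* encodes the type II receptor, which binds the ligand. Its sum was highest in lung (225.2 and 252.8 CPM) and lowest in BM (154.2 and 175.3), with LI at 188.0 and 196.6, pancreas at 211.9 and 224.0 and SI at 214.9 and 186.9. The F test over tissues gave an adjusted p of 0.0524, and lung exceeded BM by 0.54 ± 0.14 (log2, SE). Its promoter region (chr9:116174915-116175620) did not differ between tissues (adjusted p = 0.237), with 48.82 and 39.12 CPM in SI and 29.99 to 38.89 in the other libraries. Of its 19 regions SI had the highest mean in 7 and lung in 6, and BM had the lowest in 10.

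The intron 4 region of *Tgfbr2* printed above (chr9:116122867-116123488, 52.2 kb from the TSS) had 21.56 and 30.28 CPM in lung, 14.49 and 11.5 in SI, 11.65 and 10.49 in BM, 7.48 and 6.9 in pancreas, and 5.93 and 6.73 in LI. Lung stood apart from all other libraries. It exceeded SI by 1.00 ± 0.24 and LI by 2.03 ± 0.25 (log2, SE), with a largest adjusted p of 0.00675 over the 4 contrasts. In intron 2 (chr9:116152833-116153390) lung and pancreas were alike, with 42.57 and 40.08 and 36.75 and 36.35 CPM, and SI was lowest with 10.25 and 13.48 CPM. SI was below the next tissue by 0.95 ± 0.23 (largest adjusted p = 0.0146), and this call held in all 17 alternative fits. In intron 1 a region 6.3 kb from the TSS (chr9:116168679-116169396) was lowest in BM, with 4.7 and 4.83 CPM against 13.25 and 13.73 in LI, a difference of 1.50 ± 0.25 (adjusted p = 3.4e-04), and the BM call also held in all 17. A region 7.8 kb from the TSS was lower in both gut tissues (4.1 and 4.82 CPM in LI, 4.14 and 4.15 in SI) than in the other 3 (5.87 to 8.84), although its F test was lost without LI replicate 1, either lung library or pancreas replicate 1 (adjusted p from 0.0513 to 0.0719). In intron 7 a faint region 84.1 kb from the TSS was lowest in BM (1.13 and 0.51 CPM, against 1.59 to 4.6 elsewhere), a call lost without BM replicate 2 (-1.14), LI replicate 2 (-1.42), lung replicate 1 (-1.17) or pancreas replicate 2 (-0.97) and with thinned counts (-1.22).

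**Figure D4:**
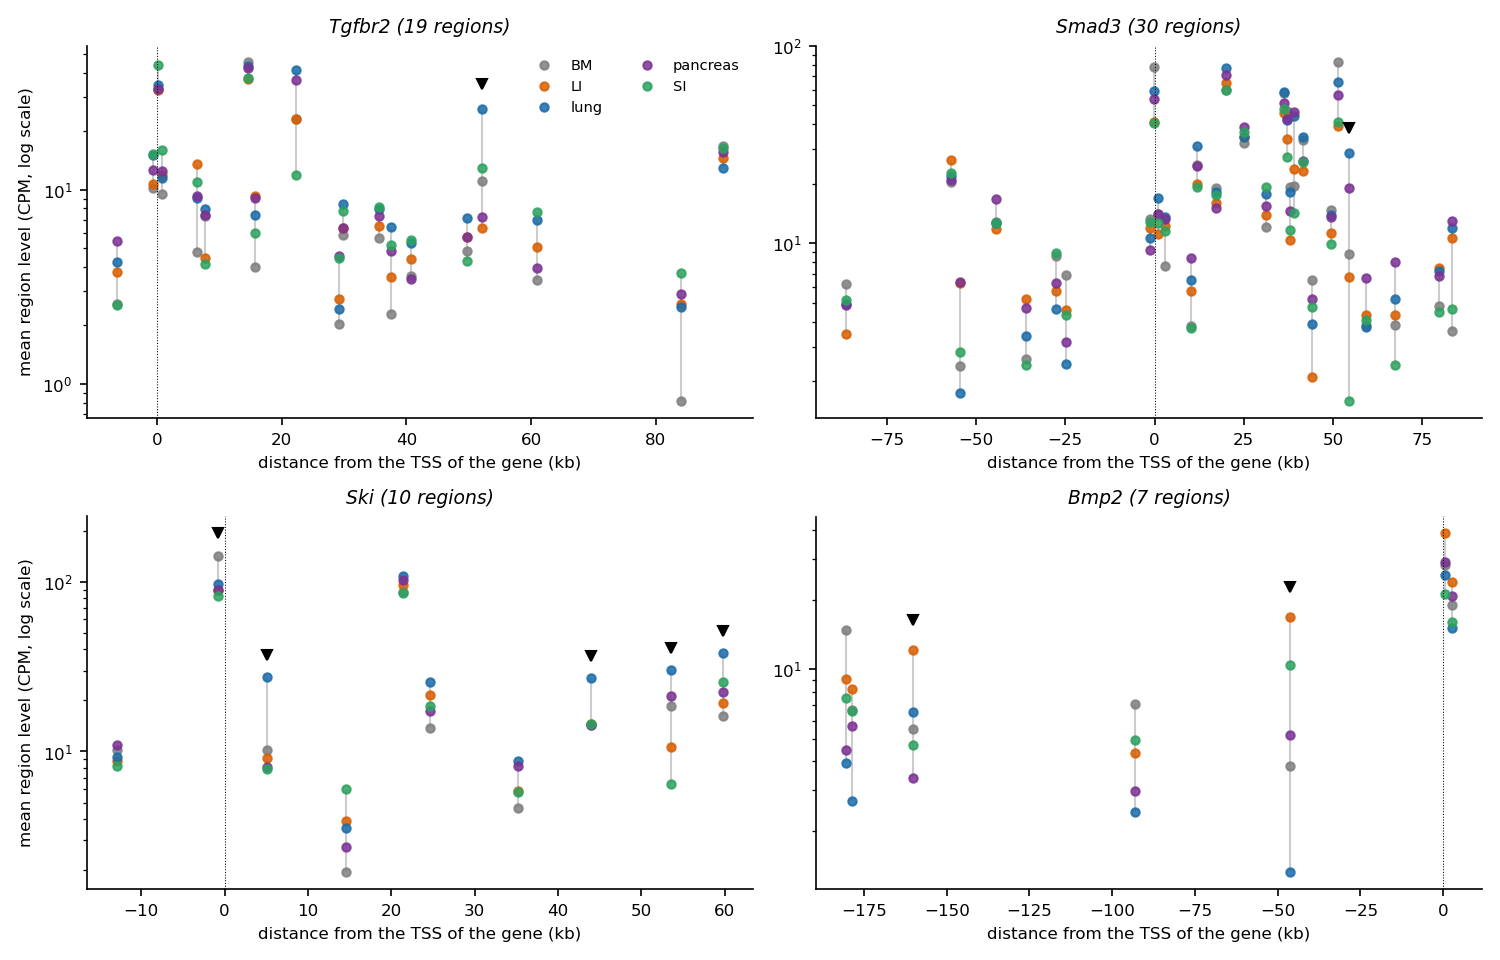
Mean CPM (log axis) of each region in each tissue against its distance from the gene's TSS in kb, positive into the gene, with a grey line from the lowest to the highest tissue and a black triangle over each TS OCR. The widest spread lies 54.4 kb into the gene at *Smad3*, 53.5 kb at *Ski* and 84.1 kb at *Tgfbr2*, and 46.2 kb upstream at *Bmp2*.

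The 3 transducer genes differed from each other. *Smad2* gave the largest p of the 10 summed levels, with 0 of 7 regions passing edgeR's F test (1 at an unadjusted p under 0.05, and 0 with DESeq2) and a summed level from 69.84 to 91.42 CPM over all 10 libraries (adjusted p = 0.573). Its promoter region (chr18:76241326-76242009) had 50.75 and 50.43 CPM in BM, 45.51 and 48.11 in lung, and 46.94 and 29.88 in pancreas. Of its regions, the 1 with the smallest p lay 18.1 kb upstream and had 13.95 and 10.21 CPM in LI against 6.86 and 6.29 in lung (adjusted p = 0.0926, and 0.0216 without SI replicate 2).

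*Smad3* had the most regions of the 10 genes, 30, of which 10 passed the F test. Its sum was 590.4 and 646.8 CPM in lung, 638.9 and 567.4 in pancreas, 514.4 and 545.0 in BM, 428.3 and 550.0 in LI and 410.2 and 472.0 in SI (adjusted p = 0.107). The promoter region (chr9:63757942-63758489) was highest in BM, with 84.41 and 71.28 CPM, and lower in LI (36.09 and 46.53) and SI (36.88 and 44.13), with an adjusted p of 0.00376. BM was highest in 52.6% of all promoter regions. Its lead at the *Smad3* promoter was not shared by the intron that varied most.

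That intron 1 region of *Smad3*, printed above (chr9:63703352-63703869, 54.4 kb from the TSS), had the smallest p of all 108 regions (adjusted p = 6.3e-07). Its level was 27.09 and 29.92 CPM in lung, 15.37 and 22.54 in pancreas, 7.88 and 9.8 in BM, 6.71 and 6.86 in LI, and 1.78 and 1.39 in SI. No library of lung, pancreas or SI overlapped another tissue's range. Lung exceeded SI by 4.17 ± 0.29 on the log2 scale (SE; adjusted p = 2.5e-07). SI was below LI by 2.11 ± 0.29 (largest adjusted p = 3.4e-04 over its 4 contrasts), and this held in all 17 alternative fits. The lead of lung over pancreas was smaller, 0.60 ± 0.25 (adjusted p = 0.172), and was lost without either lung library (0.67 and 0.53) or pancreas replicate 1 (0.34), with GC and width trends removed (0.49) and with thinned counts (0.48).

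The regions of other genes whose log2 CPM followed this *Smad3* region most closely over the 10 libraries were at *Hivep2* (Pearson r = 0.993), *2310069B03Rik* (0.991), *Dhx32* (0.989), *Entpd4* (0.985) and *LOC105245613* (0.982). The 5 were the highest of the whole table at distinct genes and share libraries with the region itself. The *Hivep2* region (chr10:13998841-13999407), for example, had 4.28 and 3.73 CPM in SI, 11.84 and 11.86 in pancreas and 14.43 and 15.46 in lung. Elsewhere in *Smad3* intron 1, a region 44.2 kb from the TSS (chr9:63713540-63714040) was lowest in LI, with 1.22 and 3.0 CPM against 6.56 and 6.53 in BM. The LI call there was lost without LI replicate 1 (-0.39) and without lung replicate 2 (-0.69). A region 3.0 kb from the TSS was lowest in BM (8.91 and 6.4 CPM) and did not pass the F test (adjusted p = 0.0798), and its call was lost without BM replicate 2 (-0.37), LI replicate 2 (-0.53) or SI replicate 1 (-0.38) and with GC and width trends removed (-0.44).

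*Smad4*, the partner shared by the TGF-β and BMP branches, had the largest difference of the 10 genes by summed level. The sum was 110.7 and 133.2 CPM in lung, 96.09 and 69.42 in LI, 65.56 and 66.18 in pancreas, 80.16 and 49.8 in SI, and 36.59 and 26.64 in BM. BM lay below and lung above all other libraries, and lung exceeded BM by 1.95 ± 0.22 on the log2 scale (SE; adjusted p = 2.8e-05). This held in all 17 alternative fits of summed levels, none of which removed trends in GC content and width. The 4 regions lay within intron 1, 10.4 to 14.1 kb from the TSS, and moved together. The widest (chr18:73690310-73691391) had 45.55 and 53.19 CPM in lung, 40.01 and 27.5 in LI, 31.73 and 21.21 in SI, 21.49 and 20.17 in pancreas and 15.76 and 11.27 in BM.

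All 4 *Smad4* regions were lowest in BM and 3 were also lung TS OCRs. The lung calls were lost without lung replicate 2 (0.81, 0.44 and 0.54) and without LI replicate 2 (0.56, 0.31 and 0.52), for the regions 14.1, 12.9 and 11.9 kb from the TSS in that order. The first was also lost without SI replicate 2 (0.72). With GC and width trends removed the lung calls were lost at 12.9 kb, where the lead fell from 0.56 to 0.27, and at 11.9 kb, where it fell from 0.68 to 0.45. The BM calls were lost without BM replicate 2 in all 4 regions (-0.64, -0.40, -0.61 and -0.68, the last for the region 10.4 kb from the TSS). The BM calls were also lost without pancreas replicate 1 at 14.1 kb (-0.54), either pancreas library at 12.9 kb (-0.58 and -0.67), SI replicate 1 at 11.9 kb (-0.50) and at 10.4 kb (-0.42), and with GC and width trends removed at 10.4 kb (-0.61). The *Smad4* regions were made of masked repeat sequence for at least 63.1% of their length, and they were the only 4 of the 108 regions with at least 50% repeat. Among all regions with at least 50% repeat (3.89% of those tested), 1.08% were lung TS OCRs and 4.47% were lowest in BM. The part of the repeats in the *Smad4* levels was not tested. Without the *Smad4* regions, 8 of 104 regions (7.69%) were lung TS OCRs and 6 of 104 (5.77%) were lowest in BM.

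The region at the *Smad4* start itself (chr18:73703706-73704229, 176 bp upstream of the TSS) was not counted among the 108, because its nearest TSS belonged to the neighbouring noncoding gene *4930578L24Rik*. It had 33.12 to 49.28 CPM over the 10 libraries and did not differ between tissues (adjusted p = 0.594). The lung and BM differences at *Smad4* were therefore seen in the intron and not at the start site.

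The inhibitor genes had most of the remaining lung TS OCRs. *Ski* encodes a corepressor that binds SMAD complexes, and 7 of its 10 regions were highest in lung. Its sum was 348.2 and 341.0 CPM in lung, 298.8 and 263.6 in pancreas, 277.3 and 261.0 in BM, 249.2 and 278.4 in LI, and 214.2 and 254.2 in SI, with both lung libraries on top (adjusted p = 0.0552, and 0.00661 over regions outside promoters only). Over the whole table, BM was highest in 52.6% of promoter regions and in 23.3% of regions outside promoters. TS OCRs of BM made up 688 of all 9629 promoter regions. At *Ski* too, the promoter region (chr4:155223075-155223598) was highest in BM and went against the introns. It was a TS OCR of BM, with 155.3 and 130.4 CPM in BM, 102.6 and 92.44 in lung, and 65.09 and 100.6 in SI. BM exceeded lung there by 0.55 ± 0.21 (log2, SE; largest adjusted p = 0.0813). The BM call was lost without BM replicate 1 (0.42), lung replicate 2 (0.46) or pancreas replicate 2 (0.52), and also with library size alone or with GC and width trends removed (0.34 in both).

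All 4 lung TS OCRs of *Ski* were in intron 1. The region 5.0 kb from the TSS (chr4:155217246-155217760) had 23.99 and 30.67 CPM in lung, 12.53 and 8.01 in BM, 7.58 and 10.77 in LI, 8.48 and 7.77 in pancreas, and 7.8 and 7.94 in SI. Lung exceeded BM, the next tissue, by 1.41 ± 0.27 on the log2 scale (SE; largest adjusted p = 0.00225), the largest such lead of the 11 regions. The other 4 tissues were alike in it. The region 44.0 kb from the TSS (chr4:155178244-155178796) had the same shape, with 26.93 and 27.19 CPM in lung and 11.76 to 17.08 in the 8 other libraries, a lead of 0.89 ± 0.23 (largest adjusted p = 0.0333).

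The *Ski* region 53.5 kb from the TSS (chr4:155168733-155169297) instead graded over the tissues. It had 33.36 and 27.08 CPM in lung, 21.91 and 20.49 in pancreas, 18.74 and 18.31 in BM, 11.33 and 9.95 in LI, and 6.35 and 6.51 in SI, with no overlap between any 2 tissues. Both gut tissues were lower than the other 3, and lung exceeded SI by 2.23 ± 0.22 (adjusted p = 5.4e-06). The lead of lung over pancreas, 0.51 ± 0.21, was lost without lung replicate 1 (0.35) or either pancreas library (0.56 and 0.46), and fell to 0.24 and was lost with GC and width trends removed. SI was also called lowest, a call lost with library size alone (-0.48). The order lung, pancreas, BM, LI, SI was the same as in the *Smad3* region 54.4 kb from its TSS. The fourth region, 59.7 kb from the TSS (chr4:155162482-155163108), had 36.03 and 39.75 CPM in lung and 30.14 and 21.56 in SI, and its call was lost without SI replicate 2 (0.34) or lung replicate 2 (0.51).

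*Skil* encodes SnoN, a close relative of SKI. Its sum was 285.2 and 307.1 CPM in lung and 192.3 to 255.3 in the 8 other libraries, so lung did not overlap the rest, but the F test did not pass (adjusted p = 0.0962). The region over its start (chr3:31094588-31095971) had 201.4 and 214.4 CPM in lung, 185.0 and 199.1 in BM, and 111.4 and 177.2 in SI (adjusted p = 0.154). Its lung TS OCR 19.1 kb upstream (chr3:31075692-31076192) was faint, with 2.82 and 3.17 CPM in lung and 0.69 to 1.61 elsewhere, and the call was lost on leaving out any of the 10 libraries, with leads from 0.90 to 1.06, with DESeq2 (1.01) and with the replicate block (0.99). A region 11.0 kb upstream (chr3:31083790-31084424) had the smallest p at *Skil* (adjusted p = 0.00394). There SI was highest, with 27.06 and 21.53 CPM, and pancreas lowest, with 8.72 and 9.06. A region in intron 2 was lowest in BM (7.1 and 6.63 CPM), a call lost without BM replicate 2 (-0.63), pancreas replicate 1 (-0.53) or SI replicate 2 (-0.49) and, falling from -0.68 to -0.27, with GC and width trends removed.

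*Smad7* encodes the inhibitory SMAD that acts at the receptor and is itself a classical TGF-β target. Its sum was 187.8 and 209.7 CPM in lung, 167.2 and 161.0 in BM, 136.7 and 168.8 in LI, 145.9 and 154.3 in SI, and 128.3 and 113.3 in pancreas. Both pancreas libraries lay below and both lung libraries above the rest. Lung exceeded pancreas by 0.72 ± 0.14 (log2, SE; adjusted p = 0.00952), and the F test (adjusted p = 0.0134) was lost without lung replicate 2 (0.0987) or pancreas replicate 2 (0.0878). Pancreas was lowest in 7 of its 10 regions.

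The intron 3 region of *Smad7* (chr18:75387356-75387920) had 30.34 and 28.04 CPM in lung and 15.31 to 21.94 in the others, a lead of 0.49 ± 0.20 lost without lung replicate 1 (0.45), LI replicate 1 (0.41) or SI replicate 2 (0.46). With GC and width trends removed that lead was 0.24 and the call was lost. A region 43.1 kb from the TSS, beyond the gene's end (chr18:75410127-75410727), was a TS OCR of BM, with 13.31 and 11.32 CPM in BM, 5.26 to 6.97 in LI and SI, 5.96 and 4.14 in lung, and 2.59 and 3.67 in pancreas. BM exceeded SI by 0.96 ± 0.29 (largest adjusted p = 0.023), and the BM call held in all 17 alternative fits. The promoter region (chr18:75367109-75367793) had 31.56 and 19.2 CPM in pancreas and 33.03 to 48.14 elsewhere. Its call as lowest in pancreas rested on the shallowest library, and without pancreas replicate 2 the difference was -0.28. That call was also lost without BM replicate 1 (-0.57), LI replicate 2 (-0.48) or SI replicate 2 (-0.35), and with GC and width trends removed (-0.22). The regions 43.1 kb and 52.2 kb from the TSS were called lowest in pancreas as well (2.59 and 3.67 CPM, and 2.3 and 4.42 CPM). The first of these calls was lost without LI replicate 1 (-0.71), lung replicate 1 (-0.43) or pancreas replicate 1 (-0.46), with GC and width trends removed (-0.35) and with thinned counts (-0.66), and the second without LI replicate 2 (-0.66), lung replicate 1 (-0.63) or pancreas replicate 1 (-0.46).

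*Bmp2* was the member most open in LI and least open in lung. Its sum was 91.95 and 121.0 CPM in LI, 63.21 and 80.03 in BM, 69.53 and 66.39 in pancreas, 55.69 and 71.81 in SI, and 55.48 and 49.91 in lung. LI exceeded lung by 1.02 ± 0.17 (log2, SE; adjusted p = 0.00161) and BM, the next tissue, by 0.57. The F test (adjusted p = 0.00271) was lost without LI replicate 2 (0.0556, with a difference of 0.80). LI led in 5 of the 7 regions, and lung was lowest in 5.

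The *Bmp2* region 46.2 kb upstream, printed above (chr2:133505683-133506230), had 18.13 and 15.34 CPM in LI, 7.56 and 13.31 in SI, 4.65 and 5.72 in pancreas, 2.89 and 4.74 in BM, and 1.25 and 1.41 in lung. The 4 gut libraries lay above the other 6, and lung below all others. LI exceeded lung by 3.64 ± 0.35 on the log2 scale (SE; adjusted p = 5.1e-05). Lung was below BM by 1.51 ± 0.35 (largest adjusted p = 0.00579), which held in all 17 alternative fits. The lead of LI over SI was 0.67 ± 0.31 (adjusted p = 0.191) and was lost without either LI library (0.55 and 0.81), either pancreas library (0.67 in both) or SI replicate 1 (0.36), with library size alone (0.43) and with thinned counts (0.46). A region 160.2 kb upstream (chr2:133391564-133392261) had 8.19 and 16.03 CPM in LI and 2.91 to 6.62 elsewhere, and its call as TS OCR of LI was lost without LI replicate 2 (0.32), BM replicate 1 (0.91) or either lung library (0.89 and 0.93), with library size alone (0.69) and with GC and width trends removed (0.59). A region 178.5 kb upstream was lowest in lung (3.49 and 1.93 CPM against 5.06 to 9.34 elsewhere), a call lost without lung replicate 2 (-0.70) or pancreas replicate 2 (-0.91). At the start site (chr2:133551953-133553362) LI was again highest, with 32.17 and 44.96 CPM against 20.03 and 22.36 in SI (adjusted p = 0.0232).

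Short motifs were searched on both strands in the middle 500 bp of every region. CAGAC was present in 10 of the 11 lung TS OCRs of the genes (90.9%), with 3.36 matches per region, and in 87.3% of all 652 lung TS OCRs, with 3.15. It was present in 67.6% of the 108 regions and in 71.3% of all regions, with 1.44 and 1.38 matches per region. Outside promoters these shares were 69.0% and 72.5%. The 97 regions of the genes that were no lung TS OCR had 1.23 matches per region. Leaving out the *Smad4* repeats, 7 of the 8 other lung TS OCRs held CAGAC, with 2.5 matches per region. The palindrome GTCTAGAC was in 0 of the 108 regions, in 4.91% of all lung TS OCRs and in 0.584% of all regions. TGACTCA, bound by AP-1, was in 0 of the 11 lung TS OCRs of the genes and in 21.3% of all lung TS OCRs. Over the 108 regions and over all regions it was in 29.6% and 18.3%. AGGTCA, bound by ROR and other nuclear receptors, was in 38.9% and 27.7%, AGATAA in 26.9% and 24.8%, TGTGGT in 34.3% and 39.1%, GGGCGG (KLF and SP factors) in 25.9% and 31.3%, and GGCGCC in 11.1% and 13.9%. Outside promoters the genes' regions and all regions were closer for GGGCGG (21.0% and 20.9%) and GGCGCC (7.0% and 8.89%). There TGACTCA was in 31.0% and 21.1%, AGGTCA in 42.0% and 29.9%, AGATAA in 29.0% and 28.4%, and TGTGGT in 37.0% and 43.5%. These are matches of letters, and the shares over the genes' regions were not tested.

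Other genes of the TGF-β and BMP pathways showed the same lean to lung mainly at a pair of inhibitor genes. Of 57 further genes listed, 53 had a region and 25 of these (47.2%) differed between tissues by summed level, beside 34.9% of all genes. Their 239 regions included 17 lung TS OCRs (7.11%, beside the 1.3% of all regions), of which *Ldlrad4* held 10, *Pmepa1* 6 and the BMP receptor gene *Bmpr1a* 1. BM had 5 TS OCRs there (4.5% of all regions), LI 4 (1.3%), pancreas 2 (1.43%) and SI 5 (2.8%). By role, the F test called 4 of 8 ligand genes with a region, 6 of 11 for latency and activation, 7 of 9 receptors, 1 of 4 SMADs, 5 of 15 brakes and adaptors, and 2 of 6 response genes, each beside the same 34.9% of all genes.

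*Pmepa1* and *Ldlrad4* encode related membrane proteins that bind receptor-activated SMADs and limit the signal. The *Pmepa1* sum was 264.3 and 306.8 CPM in lung and 133.5 to 179.0 in the other libraries, with lung over the next tissue, LI, by 0.70 and over SI by 1.05 ± 0.14 (log2, SE; adjusted p = 7.1e-05). For *Ldlrad4* the sum was 516.2 and 616.6 CPM in lung and 271.4 to 384.4 in the others, with lung over SI by 1.02 ± 0.16 (adjusted p = 3.3e-04). The ligand gene *Tgfb3* had the smallest p of the list and was lowest in BM, with 23.21 and 22.63 CPM against 67.93 and 90.59 in LI, a difference of 1.79 ± 0.18 (adjusted p = 5.1e-06). *Thbs1*, whose product can activate latent TGF-β, had a single region, highest in pancreas with 9.499 and 12.12 CPM and from 0.6098 to 3.734 in the rest (F test adjusted p = 3e-05).

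**Figure D5:**
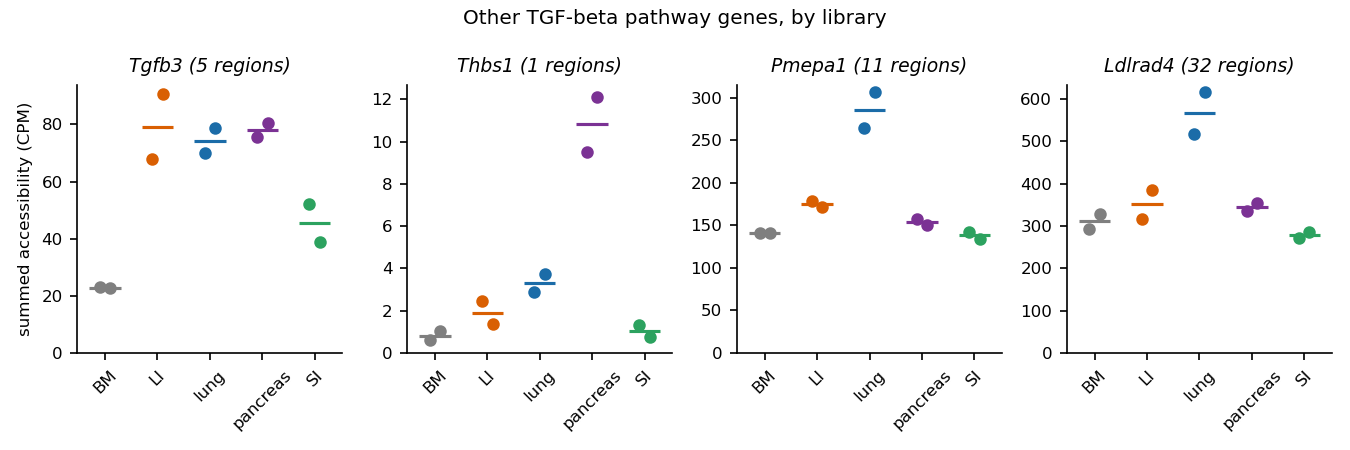
Summed accessibility (CPM, linear axes from 0) of the 3 other pathway genes with the smallest p and of *Ldlrad4* in the 10 libraries, with points for libraries and lines for the mean of 2. Lung lies above every other tissue for *Pmepa1* and *Ldlrad4*, BM lies lowest for *Tgfb3*, and pancreas lies highest for *Thbs1*.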

How the data were processed

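The members and gene lists were chosen with earlier results of these data known. The deposited table holds counts: the authors checked reads with FastQC 0.11.9, removed adapters and poor reads, mapped to mm10 with Bowtie2 2.2.9, kept unique matches, converted them with SAMtools 1.8, called peaks with MACS2 2.1.1, merged peaks found in both replicates, and counted reads per region in each library. Treatment of duplicates, mitochondrial reads and the transposase offset is not given in the sources used here. Reads carry no molecular identifiers, so errors from depth cover counting only.

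Regions were annotated with RefSeq curated transcripts of GRCm38. Promoter regions had their centre within 1000 bp before or 100 bp after a TSS. Counts of the 10 libraries (groups from the labels, biological duplicates) were fitted in edgeR 4.0.16 (R 4.3.3) with TMM scaling and tissue as the only factor, by quasi-likelihood tests with Benjamini-Hochberg adjustment over all 49981 regions with at least 1 count, and likewise over 17484 genes. The study used DESeq2 for the pairwise contrasts, and DESeq2 1.42.0 was run here as an alternative. Alternatives were other scalings, a filter, thinned counts, GC and width trends, a replicate block and leaving out each library. On data simulated from the real means, 32 of 100 regions raised 2-fold in lung and 99 of 100 raised 4-fold passed the F test. As lung TS OCRs, 72 and 100 of them were called. Among the 49781 regions left unchanged, 7 passed the F test and 20 were called lung TS OCRs. Each unchanged region was simulated with the same mean in all tissues, whereas 44.2% of the real regions differed between tissues. False lung TS OCRs among regions that differ in other ways, such as those high in lung and pancreas, were thus not measured. The raised regions were drawn from those with many counts, so recovery at faint regions was not measured.

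Regions described are each gene's promoter region, its region of smallest p, and every TS OCR, region lowest in a tissue and intestinal region. Repeat sequence is that in lower case in the RefSeq genome. A further erythroid marker and a further sequence are not reported here.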

Additional observations from a re-analysis of the deposited data

How the results depend on the processing

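Counts of calls were recomputed under every alternative. With a threshold of 0.05 on adjusted in place of unadjusted p, 4 TS OCRs (3 of lung), 6 regions lowest in a tissue (3 in BM) and 2 intestinal regions remained in the counts, and requiring a log2 difference above 1 left 2 (1 of lung), 4 (1 in BM) and 2. With GC and width trends removed, lung TS OCRs numbered 6 and regions lowest in BM 5. Genes called by summed level numbered 8 with library size alone and 9 with DESeq2. Leaving out single libraries gave 33 to 65 regions differing between tissues, 10 to 19 TS OCRs, 5 to 10 of lung, 13 to 24 regions lowest in a tissue, 3 to 10 in BM, 1 to 7 intestinal regions, 3 to 8 member genes and 17 to 30 other pathway genes. Each such fit had a tissue with 1 sample, assumed to vary like the others. The cause of these changes was not tested beyond fewer samples.

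The deviations of replicate 1 correlated between tissues from -0.22 to 0.20, over 0.1 in 4 of 10 pairs. Without a reference value this does not settle whether replicate numbers paired the samples. With the replicate block, 52 regions differed, 15 were TS OCRs (10 of lung), 21 were lowest in a tissue, 4 were intestinal, and 6 genes and 23 other pathway genes were called.

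Of 41 named calls on regions past the threshold, 10 kept their call and direction in all 17 alternative fits, and of 5 genes called by summed level 2 did (*Tgfb1* and *Smad4*). The 2 sets of 17 differ in 1 fit: GC and width trends were removed for regions, and promoters were left out for sums. The *Tgfbr1* region 6.2 kb upstream reversed without SI replicate 1, from 1.46 to -0.42 (up to 2.25 without SI replicate 2). The filter of 10 counts in 2 libraries removed no further region. With counts thinned to the smallest library, pancreas replicate 2, 45 regions differed between tissues in place of 52.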
